A study of Mus musculus with 6 samples.

Results

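The vascular endothelial growth factor (VEGF) family was examined in kidneys of mouse embryos at E15.5 (embryonic day). Its members were taken by symbol, as rows of the deposited table whose Ensembl identifier carries the name of a VEGF ligand (Vegfa, Vegfb, Vegfc, Vegfd, Pgf) or of a VEGF receptor (Kdr, Flt1, Flt4). All 8 were found among 24749 genes, and all 8 were among the 16899 that passed a filter on low values. RNA-seq was done on whole dissected kidneys of mixed strain, from 3 embryonic kidney samples labelled Foxd1cre; Yapc/c;Tazc/c (called knockout) and 3 labelled wild-type and Cre negative. In the knockout, a Cre recombinase driven from Foxd1 acts on floxed alleles of Yap1 and of Wwtr1 (the gene of TAZ) in stromal progenitors and their descendants, so the samples also hold many cells outside that lineage. The labels do not say whether the wild-type embryos carried floxed alleles. Nor do they tie the samples of a group to different embryos or litters, and p-values measure only how these samples spread, which may be technical.

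VEGF-A, made in the kidney by podocytes and tubular epithelium, binds the receptors KDR (VEGFR2), which carries most of the growth signal in blood endothelium, and FLT1 (VEGFR1), which binds it tightly and, in a soluble form, traps it. VEGF-B and PlGF (encoded by Pgf) bind FLT1 only. VEGF-C and VEGF-D act on lymphatic endothelium through FLT4 (VEGFR3), and are secreted as precursors that proteases trim. In mice VEGF-D binds FLT4 and not KDR. It was first described as a growth factor induced by c-Fos, and is known from fibroblasts and other mesenchymal cells.

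Of the targeted genes, Wwtr1 (chromosome 3, 57455649 to 57575910, GRCm38) had 13.5, 12.8 and 12.2 FPKM in knockout kidneys, against 20.2, 17.7 and 18.5 FPKM in wild-type kidneys, and was called lower (log2 change -0.51, limma adjusted p = 0.0235). Yap1 (chromosome 9, 7931999 to 8004596) had 48.7, 43.2 and 44.2 FPKM in knockout kidneys, against 45.5, 52.7 and 55.0 FPKM in wild-type kidneys, and was not called (adjusted p = 0.378). Exons of Yap1 overlap the opposite-strand model Gm20416. FPKM count sequenced fragments for each kilobase of a transcript, after scaling for library size. A gene was called at an adjusted p under 0.05. The scaled values of each library correspond to an estimated 12800000 to 15500000 fragments, which need not be the number sequenced. Wild-type library 3 stood apart from the other 5 libraries on the first principal component, and wild-type library 1 on the second. Wwtr1 was no longer called when wild-type library 2 or 1 of the knockout libraries was left out (adjusted p 0.0663 to 0.115).

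Among the VEGF ligands and receptors 1 of 8 was called, Vegfd, which was lower in knockout kidneys. Over all genes tested 0.734% were called in either direction and 0.604% lower. Vegfd (ENSMUSG00000031380, chromosome X, 164373378 to 164402650, plus strand) had 5.44, 4.24 and 4.17 FPKM in the 3 knockout libraries, against 8.92, 9.13 and 9.09 FPKM in the 3 wild-type libraries. The groups did not overlap, and the wild-type libraries lay close together while the first knockout library lay above the other 2. Vegfd averaged 4.62 ± 0.716 FPKM in knockout and 9.04 ± 0.108 FPKM in wild-type kidneys (SD, n = 3 each), so that knockout kidneys held 51.0% of the wild-type level. Its log2 change was -0.85 (SE 0.10, 95% interval from -1.08 to -0.61, limma adjusted p = 0.0128). It ranked 55 among all genes tested by p. Permuting the libraries in all 20 ways (exact, two-sided) gave p = 0.1, the smallest that 3 against 3 allows. The call was lost without knockout library 2 (adjusted p = 0.069), knockout library 3 (0.0605) or wild-type library 2 (0.0806), at log2 changes of -0.80, -0.79 and -0.84. It held without knockout library 1 (log2 -0.95, adjusted p = 0.00927), wild-type library 1 (log2 -0.85, 0.0422) or wild-type library 3 (log2 -0.84, 0.0326). On its longest annotated transcript of 2049 bp these values stand for about 113 to 267 fragments, whose counting error alone is 6.12% to 9.41%.

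**Figure D1:**
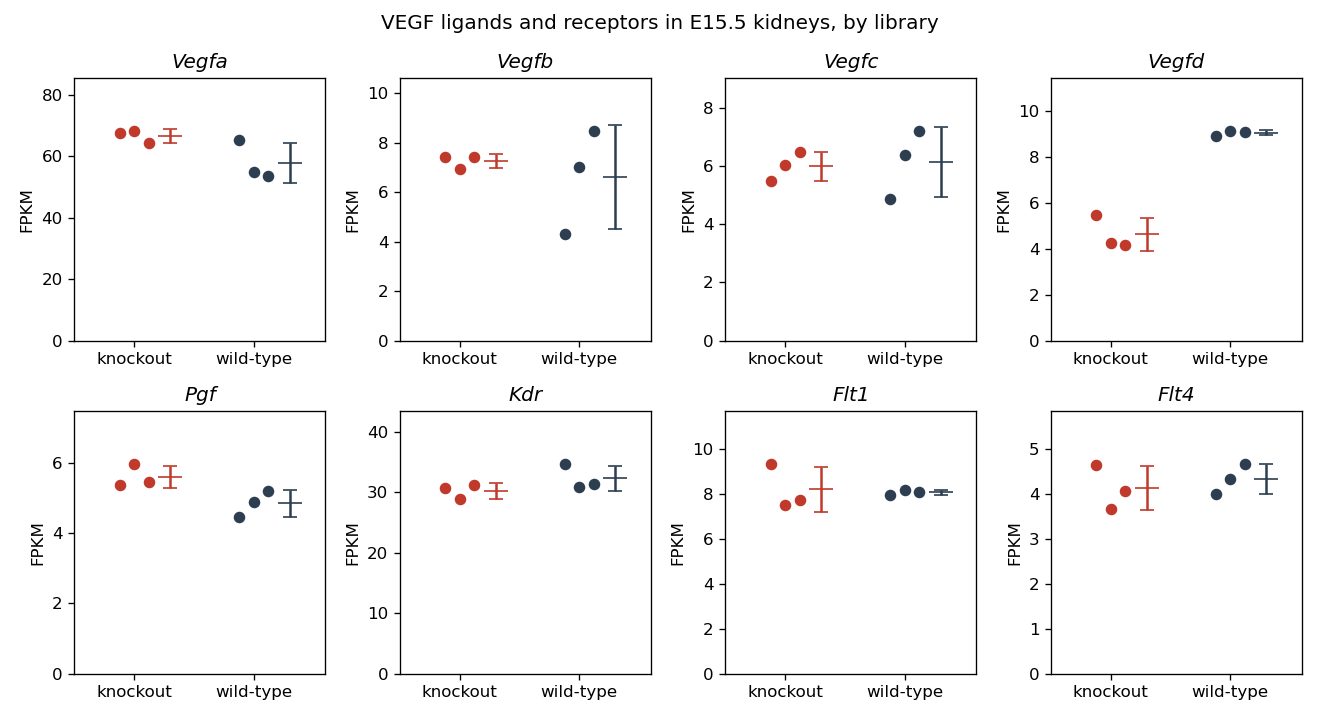
FPKM (y axis, from 0) of the 5 ligands and 3 receptors in each library, knockout in red and wild-type in dark blue, with the mean and SD (n = 3) to the right of each set of points. Vegfd is the only gene of the 8 whose knockout points (4.17 to 5.44) all lie far below its wild-type points (8.92 to 9.13), and Pgf is the only one whose knockout points all lie above.

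The promoters of the FLT4 ligands are shown because Vegfd was called and Vegfc was not. Each is the window from 250 bases before to 50 bases after the RefSeq start on GRCm38.p6, and capitals mark CG dinucleotides. The Vegfd window is chrX:164373272-164373571 and the Vegfc window chr8:54077282-54077581, both on the plus strand.
Vegfd: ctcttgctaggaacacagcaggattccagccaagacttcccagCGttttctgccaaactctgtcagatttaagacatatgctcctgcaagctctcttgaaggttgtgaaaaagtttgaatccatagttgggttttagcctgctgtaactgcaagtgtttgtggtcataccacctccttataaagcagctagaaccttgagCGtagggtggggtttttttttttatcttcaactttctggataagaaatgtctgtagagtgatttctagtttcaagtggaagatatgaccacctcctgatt
Vegfc: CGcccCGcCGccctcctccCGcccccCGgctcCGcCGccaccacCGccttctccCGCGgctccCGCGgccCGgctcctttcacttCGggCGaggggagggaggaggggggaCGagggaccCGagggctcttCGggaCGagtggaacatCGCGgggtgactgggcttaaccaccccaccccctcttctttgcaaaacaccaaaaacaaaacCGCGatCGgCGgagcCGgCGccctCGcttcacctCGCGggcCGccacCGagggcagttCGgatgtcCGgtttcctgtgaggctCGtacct
The Vegfd window holds 2 CG dinucleotides and 42.0% G and C, and 14.1% of all 32851 promoter windows in the RefSeq set hold fewer of either. The Vegfc window holds 35 CG dinucleotides and 70.3% G and C. The 9 other windows of members (RefSeq gives 10 for the 8 genes) ranged from 59.3% to 75.3% G and C. TEAD factors are the DNA-binding partners of YAP and TAZ, and 14.7% of all windows hold the letters GGAATG of their motif on either strand. The AP-1 motif TGANTCA, bound by Fos and Jun proteins, is in 7.81%, and the ETS motif CGGAAG in 16.9%. None of these 3 motifs is in any of the 10 windows of members. The core ACGTG of the hypoxia response element is in 19.6% of all windows and, among members, in 1 window, the second of Vegfa.

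Markers of the lineage that carries Cre were read beside Vegfd, where 8517 of all 16899 genes lay below 0 and 0.604% were called lower. Of 8 stromal genes 7 lay below 0 and 1, Ntn1, was called lower, and their summed level was 319 to 343 FPKM in knockout against 395 to 419 FPKM in wild-type kidneys. Of 10 pericyte and smooth muscle genes 6 lay below 0 (7 when libraries were rescaled to equal sums) and 2 were called lower, Acta2 and Tagln, with a summed level of 160 to 163 FPKM in knockout against 196 to 206 FPKM in wild-type kidneys. The other 4 mural genes, Kcnj8, Abcc9, Cspg4 and Notch3, lay above 0 (log2 0.28, 0.17, 0.04 and 0.01) and were not called. They were named after their values were seen. No gene of either list was at 0. By unadjusted p 6 stromal genes were lower and 0 higher, and 5 mural genes were lower and 1 higher. Over all genes 6.94% were lower and 9.14% higher by unadjusted p. Of the stromal genes 6 lay without overlap below the wild-type range, against 11.8% of all genes. The others, Pdgfra (64.8 to 73.2 FPKM in knockout, 58.8 to 65.2 FPKM in wild-type kidneys) and Tcf21 (82.9 to 86.9 and 81.3 to 93.7 FPKM), overlapped between the groups. Both were named after their values were seen. The part of cell number in the change of Vegfd was not tested, and in whole kidneys fewer cells of a type and less RNA per cell cannot be told apart. Fos, named after its values were seen, measured 0.947 to 1.10 FPKM in knockout and 0.496 to 1.78 FPKM in wild-type kidneys (log2 change 0.02, adjusted p = 0.978). Jun, chosen likewise, measured 11.99 to 13.5 FPKM in knockout against 6.38 to 9.72 FPKM in wild-type kidneys (log2 change 0.65, adjusted p = 0.0894). So did Fosl2 lie higher without overlap, at 8.24 to 9.90 against 5.48 to 7.16 FPKM (log2 change 0.42, adjusted p = 0.157). Junb and Jund lay above 0 (log2 0.29 and 0.25) and overlapped between the groups. These genes too were named after their values were seen.

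Vegfc, the other ligand of FLT4 (chromosome 8, 54077606 to 54187096), had 5.49, 6.03 and 6.495 FPKM in knockout kidneys, against 4.86, 6.38 and 7.22 FPKM in wild-type kidneys. Every knockout value lay inside the wild-type range. The log2 change was -0.02, with a 95% interval from -0.33 to 0.29 (limma adjusted p = 0.958). The ratio of Vegfd to Vegfc, taken within a library after the values were seen and not tested, was 0.992, 0.703 and 0.642 in knockout libraries, against 1.84, 1.43 and 1.26 in wild-type libraries. On this scale per length, Vegfd was the more abundant FLT4 ligand in all 3 wild-type libraries and Vegfc in all 3 knockout libraries, although in knockout library 1 both were nearly level.

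Of the ligands that act on blood endothelium, none was called. Vegfa (chromosome 17, 46016993 to 46032369, minus strand) was the most abundant member, at 67.5, 68.3 and 64.2 FPKM in knockout kidneys, against 65.5, 54.8 and 53.6 FPKM in wild-type kidneys. Wild-type library 1 lay within the knockout range, and the other wild-type libraries lay below it. The log2 change was 0.20 (95% interval from 0.02 to 0.39, unadjusted p = 0.0377, adjusted p = 0.283, exact permutation p = 0.2, n = 3 each). Leaving out 1 library gave values from 0.15 without wild-type library 3 (adjusted p = 0.381) to 0.29 without wild-type library 1 (adjusted p = 0.104). That library was also high for the glycolytic and hypoxia genes Pgk1 (319 FPKM, against 252 and 251 FPKM in the other wild-type libraries) and Pdk1 (25.6, against 18.2 and 19.9 FPKM). It was high too for the tubular transporter gene Slc12a1 (55.8, against 38.7 and 24.2 FPKM). Other genes of these kinds were lowest in that library. Among them were the hypoxia gene Ddit4 (10.1, against 13.1 and 17.7 FPKM) and the distal tubule and collecting duct gene Calb1 (68.2, against 71.4 and 70.7 FPKM). All these genes were named after their values were seen, and their part in the Vegfa values was not tested.

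Pgf (chromosome 12, 85166635 to 85177790) had 5.38, 5.98 and 5.45 FPKM in knockout kidneys, against 4.46, 4.89 and 5.21 FPKM in wild-type kidneys. The groups did not overlap, but the gap between them was small beside the spread within each. It was not called, at a log2 change of 0.18 (95% interval from -0.03 to 0.38, adjusted p = 0.369, exact permutation p = 0.1, n = 3 each). Together with Vegfd this makes 2 of 8 members without overlap, against 24.3% of all genes tested. Vegfb (chromosome 19, 6982473 to 6987651) had 7.44, 6.96 and 7.41 FPKM in knockout kidneys, against 4.33, 7.02 and 8.49 FPKM in wild-type kidneys. Its wild-type values spread more widely than those of any other member relative to their mean, and the log2 change of 0.16 (95% interval from -0.32 to 0.64, adjusted p = 0.731) turned to -0.08 without wild-type library 1.

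None of the 3 receptors was called. Kdr (chromosome 5, 75932827 to 75978458) had 30.7, 28.8 and 31.3 FPKM in knockout kidneys, against 34.7, 30.9 and 31.5 FPKM in wild-type kidneys. The groups overlapped through knockout library 3, which lay between wild-type libraries 2 and 3. Its log2 change was -0.09 (95% interval from -0.24 to 0.05, adjusted p = 0.502), and -0.0435 without wild-type library 1 or -0.0605 without knockout library 2. Flt1 (chromosome 5, 147561604 to 147726011) had 9.33, 7.51 and 7.73 FPKM in knockout kidneys, against 7.93, 8.15 and 8.08 FPKM in wild-type kidneys. The knockout values lay on both sides of the narrow wild-type range, at a log2 change of 0.02 (95% interval from -0.19 to 0.23, adjusted p = 0.948). The annotation gives Flt1 6 transcripts, and the table holds 1 value per gene, so the soluble and the membrane form are not separated. How transcripts were brought to that value is not given in the labels. Flt4 (chromosome 11, 49609263 to 49652739) had 4.64, 3.67 and 4.05 FPKM in knockout kidneys, against 3.998, 4.32 and 4.66 FPKM in wild-type kidneys. The ranges nearly coincided, at a log2 change of -0.06 (95% interval from -0.30 to 0.18, adjusted p = 0.809).

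**Figure D2:**
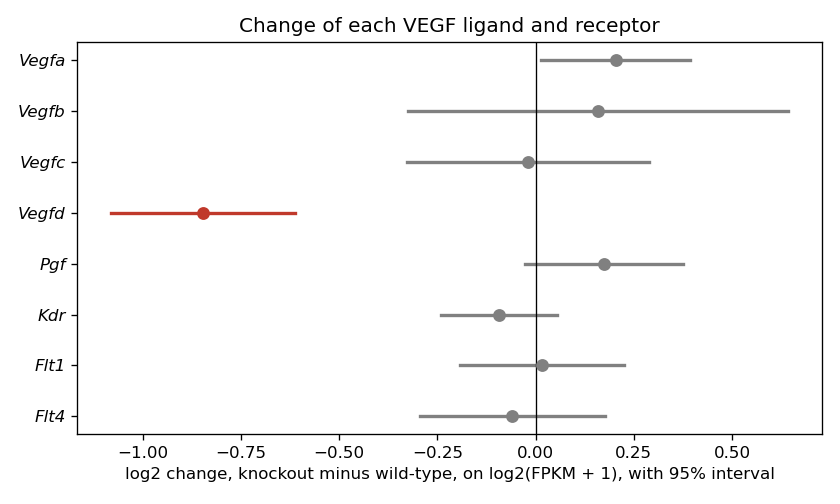
Log2 change (x axis, knockout minus wild-type on log2(FPKM + 1)) of each ligand and receptor, with its 95% interval from limma, in red where called. The interval of Vegfd runs from -1.08 to -0.61, and apart from Vegfa at 0.02 to 0.39, the intervals of the other members span 0.

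The order of levels shows where Vegfd stood. In knockout kidneys it was seventh of the 8, at a mean of 4.62 FPKM. There it overlapped in range with Pgf above it (5.60 ± 0.327 FPKM) and Flt4 below it (4.12 ± 0.491 FPKM; SD, n = 3). In wild-type kidneys it was the third, at 9.04 FPKM, and its 3 values lay above every value of Flt1, the next gene down (8.05 ± 0.108 FPKM). Vegfa and Kdr were the first and second in both genotypes, at 66.7 ± 2.166 and 30.3 ± 1.27 FPKM in knockout and 58.0 ± 6.53 and 32.4 ± 2.06 FPKM in wild-type kidneys. Of the summed ligand FPKM, Vegfd made up 4.63% to 5.97% in knockout libraries, against 10.1% to 11.1% in wild-type libraries. Vegfa made up 73.2% to 74.6% in knockout and 64.1% to 74.4% in wild-type libraries.

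The balance between the blood-vessel and the lymphatic side was compared by ratios within a library, which do not depend on scaling between libraries. None of 8 ratios had a Benjamini-Hochberg adjusted p below 0.8. With 3 against 3 libraries the exact permutation p cannot fall under 0.1, so no ratio could have been called. The test therefore cannot show whether the balance changed. The log2 ratio of Flt4 to Kdr was -2.88 ± 0.138 in knockout and -2.90 ± 0.191 in wild-type kidneys (SD, n = 3 each; exact permutation p = 0.9). That of Vegfc to Vegfa was -3.48 ± 0.159 in knockout and -3.25 ± 0.448 in wild-type kidneys (exact permutation p = 0.5, n = 3 each). Flt1 to Kdr (difference 0.11), Pgf to Vegfa (0.00171), Vegfb to Vegfa (-0.02), and Flt4 and Flt1 to the mean log2 level of 22 blood endothelium genes (-0.15 and -0.06) overlapped between the genotypes. The ratio of Kdr to those 22 genes did not overlap. It was 1.01, 0.95 and 1.09 in knockout libraries, against 1.34, 1.11 and 1.11 in wild-type libraries, with a difference of -0.17 (exact permutation p = 0.1, the smallest possible, adjusted over the 8 ratios 0.8, n = 3 each). Knockout library 3 lay just under the lowest wild-type library, and the difference was -0.09 without wild-type library 1.

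**Figure D3:**
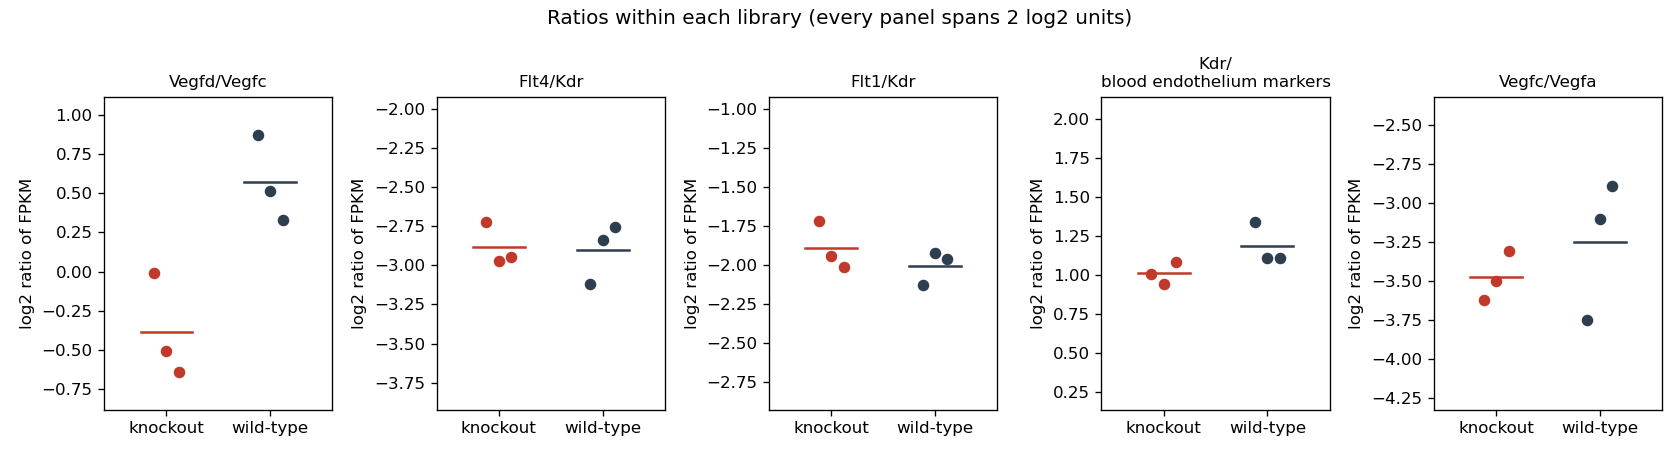
Log2 ratios of FPKM within each library (y axis, every panel 2 log2 units high), knockout in red and wild-type in dark blue, with lines at the means. Vegfd/Vegfc (the log2 of the ratios given in the text) and Kdr against blood endothelium genes do not overlap between genotypes, and Flt4/Kdr, Flt1/Kdr and Vegfc/Vegfa do.

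Outside the members, 182 genes of 16 lists for the pathway and for the cell types that make or receive VEGF were read from the same fit. The test covered 179 of them and called 6 lower and 0 higher. Over all genes the shares were 0.604% and 0.13%. In a list of 12 genes, made for co-receptors and proteins that process or bind VEGF-C and VEGF-D, 1 was called. Whether that gene, Svep1, has any of these roles was not tested. Svep1, a large secreted adhesion protein needed for lymphatic vessel formation in mice, had 8.62, 7.01 and 7.85 FPKM in knockout kidneys, against 11.6, 12.01 and 12.4 FPKM in wild-type kidneys (log2 change -0.56, adjusted p = 0.0326). The groups were fully separate. The call was lost without any 1 library (adjusted p between 0.0528 and 0.14). With all 6 libraries it was also lost with no filter (0.0501), under equal sums (0.0802) and without trend and robust moderation (0.0711). Exons of Svep1 overlap the model Gm26889 on the opposite strand. Nrp1, a co-receptor of KDR, had 57.3, 58.3 and 58.3 FPKM in knockout, against 69.5, 67.2 and 66.6 FPKM in wild-type kidneys (log2 change -0.22, adjusted p = 0.0975). The median log2 change of this list was 0.00437, beside -0.002 over all genes, and 5 of its genes lay below 0 (7 under equal sums or quantile normalization). By unadjusted p 4 of its genes were lower and 2 higher, against 6.94% lower and 9.14% higher over all genes. The 2 higher genes, Gpc1 and Furin, were named after their values were seen (log2 0.54 and 0.42, adjusted p = 0.116 and 0.253).

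Of 21 signalling proteins downstream of the receptors 0 were called by limma. By unadjusted p 8 were higher and 0 lower, against 9.14% higher and 6.94% lower over all genes, and the median log2 change was 0.15. The kinase genes Src (log2 0.58, adjusted p = 0.126) and Mapk3 (log2 0.31, adjusted p = 0.153) had the smallest p. Both kinases act in most cell types of the organ. Of 15 tested genes that respond to VEGF or mark sprouting tip cells, 1 was called and 12 lay above 0, with a median of 0.18. Angpt2, a ligand of the endothelial receptor TIE2 that is also made by mural cells, had 9.50, 9.44 and 8.87 FPKM in knockout kidneys, against 14.4, 14.03 and 12.7 FPKM in wild-type kidneys (log2 change -0.52, adjusted p = 0.0237). Its groups did not overlap, and the call was held without wild-type library 3 and lost without any other 1 library (adjusted p between 0.0591 and 0.125) or without trend and robust moderation (0.052). The potassium channel subunit gene Kcne3 had the next smallest p (log2 0.42, adjusted p = 0.153).

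Among 7 secreted inhibitors of vessel growth 1 was called. Thbs2, which encodes the matricellular protein thrombospondin-2, had 4.34, 4.31 and 4.16 FPKM in knockout kidneys, against 14.1, 11.9 and 12.2 FPKM in wild-type kidneys. Knockout kidneys held 33.5% of the wild-type level (log2 change -1.38, adjusted p = 0.00138), and the call held without any 1 library. Its relative Thbs1 measured 15.4 to 16.7 FPKM in knockout against 20.1 to 24.6 FPKM in wild-type kidneys (log2 -0.48, adjusted p = 0.054). It passed the threshold without wild-type library 3 (adjusted p = 0.0215), with a pseudocount of 0.1 (0.0472) or with a filter of 1 FPKM (0.0468). Its exons overlap an opposite-strand model. The other 5 inhibitors lay above 0 and were not called, so the median of the list was 0.17. By unadjusted p 2 of the 7 were lower and 3 higher, against 6.94% lower and 9.14% higher over all genes. The 3 higher genes, Timp3, Col18a1 and Serpinf1 (log2 0.33, 0.46 and 0.25), did not overlap between the groups. They were named after their values were seen.

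Regulators and targets of hypoxia-inducible factors (HIF), which induce Vegfa at low oxygen, had 0 calls by limma. Of 8 regulators 4 lay above and 4 below 0, and Egln2 (log2 0.31, adjusted p = 0.215) and Arnt (log2 0.15, adjusted p = 0.24) had the smallest p. Without adjustment 2 regulators were higher and 0 lower. Of 15 targets 12 lay below 0 and 3 above, with a median of -0.07 and with Kdm3a at -0.13 (adjusted p = 0.304) and Ankrd37 at -0.18 (adjusted p = 0.349). Without adjustment 1 target was lower and 0 were higher. For both lists the unadjusted shares over all genes were 9.14% higher and 6.94% lower. Vegfa itself lay above 0.

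**Figure D4:**
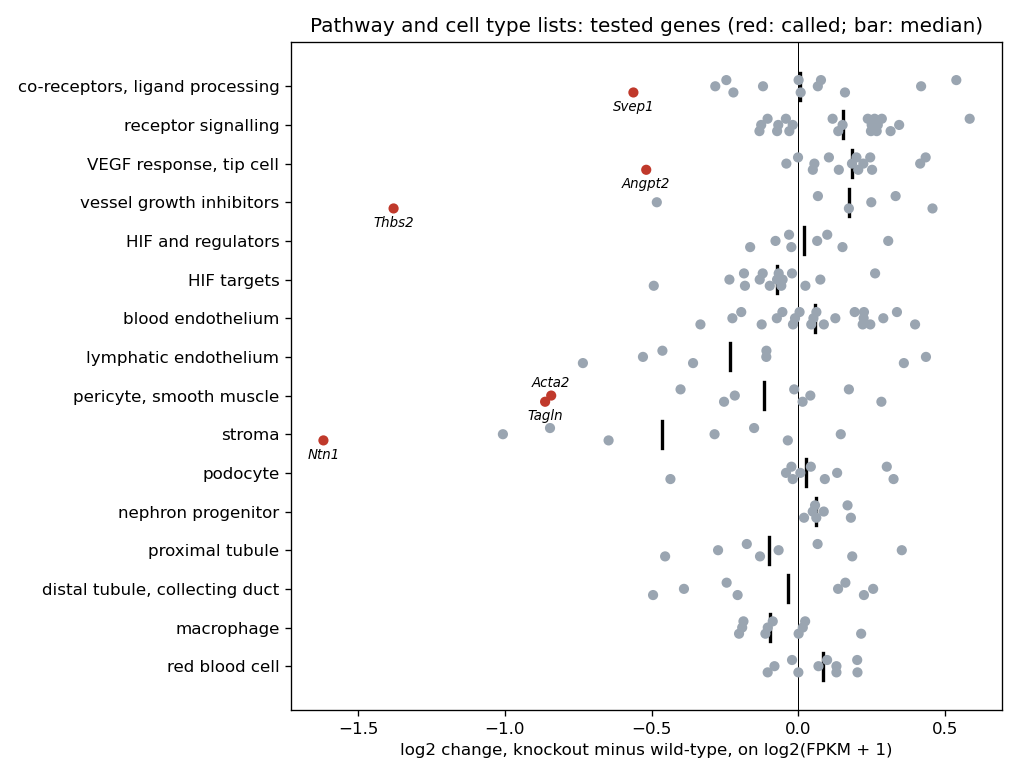
Log2 change (x axis, knockout minus wild-type on log2(FPKM + 1)) of each tested gene in the 16 lists, called genes in red and named, with a black bar at the median of each list. The 6 called genes are Svep1, Angpt2, Thbs2, Acta2, Tagln and Ntn1, all below 0, and the lymphatic and stromal medians (-0.23 and -0.47) lie lowest.

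The endothelial lists were read beside the receptors. Blood endothelium was present in every library, with 22 of 22 genes tested and a summed level of 503 to 513 FPKM in knockout, against 477 to 478 FPKM in wild-type kidneys (489 to 527 and 477 to 489 FPKM under equal sums, where the groups overlapped). Of the 22 genes, 14 lay above 0 (13 under equal sums) and 0 were called by limma, while 6 were higher and 2 lower without adjustment. The unadjusted shares over all genes were 9.14% higher and 6.94% lower. Fli1, an ETS transcription factor of endothelial and blood cells, had the smallest p (log2 -0.33, adjusted p = 0.0633), followed by Ramp2, a subunit of the adrenomedullin receptor (log2 0.22, adjusted p = 0.137). Exons of Ramp2 overlap Vps25 on the same strand. The junction genes Pecam1 (31.7 to 34.3 FPKM in knockout, 35.1 to 38.3 FPKM in wild-type) and Cdh5 (16.8 to 18.6 and 15.2 to 19.0 FPKM), named after their values were seen, had log2 changes of -0.13 and 0.04. Neither was called.

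No gene of the lymphatic list was called. Of its 10 genes, 8 were tested, and Prox1, the transcription factor that defines lymphatic endothelium, and Tbx1 fell under the filter. Prox1 measured 0.426, 0.274 and 0.456 FPKM in knockout kidneys, against 0.387, 0.298 and 1.05 FPKM in wild-type kidneys. These values are near the low end of the table, and wild-type library 3 was the highest. Of the 8 tested genes 6 lay below 0 and 0 were called by limma. By unadjusted p 4 were lower and 2 higher, against 6.94% lower and 9.14% higher over all genes, and the median log2 change was -0.23. The summed level was 95.3 to 99.3 FPKM in knockout, against 103 to 118 FPKM in wild-type kidneys, and the groups overlapped under equal sums. Nr2f2, named after its values were seen, gave the largest part of that sum, and Itga9 the next. Nr2f2 measured 35.2 to 38.2 FPKM in knockout and 37.3 to 40.5 FPKM in wild-type kidneys. Itga9, an integrin subunit of lymphatic valves that muscle also makes, had 21.9, 23.6 and 23.2 FPKM in knockout kidneys, against 27.8, 31.0 and 30.3 FPKM in wild-type kidneys (log2 -0.36, adjusted p = 0.0551). Its adjusted p passed the threshold when wild-type library 1 was left out (0.0454), with a pseudocount of 0.1 (0.0485) or with a filter of 1 FPKM (0.0479). Mmrn1, a secreted protein of lymphatic endothelium and platelets, had 3.86, 3.83 and 4.001 FPKM in knockout kidneys, against 5.24, 5.68 and 6.39 FPKM in wild-type kidneys (log2 -0.46, adjusted p = 0.0782). The lymphatic chemokine gene Ccl21a (4.63 to 5.89 FPKM in knockout, 8.11 to 11.6 FPKM in wild-type, adjusted p = 0.0861) and the hyaluronan receptor gene Lyve1 (1.48 to 2.01 and 2.19 to 4.32 FPKM, adjusted p = 0.276) were named after their values were seen. Wild-type library 3 was the highest library for both. Foxc2 lay the other way, at 12.4 to 14.7 FPKM in knockout and 7.83 to 10.8 FPKM in wild-type kidneys (adjusted p = 0.176). Foxc2 is also made in kidney mesenchyme and podocytes.

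**Figure D5:**
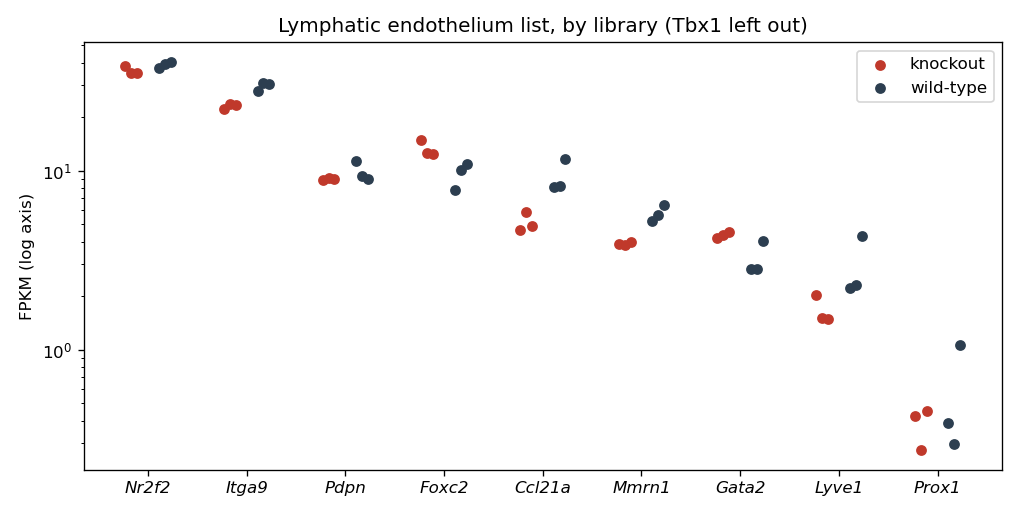
FPKM (y axis, log scale) of 9 genes of the lymphatic list in each library, knockout in red on the left and wild-type in dark blue on the right of each gene. Itga9, Mmrn1, Ccl21a and Lyve1 show knockout points below all wild-type points, Foxc2 and Gata2 the reverse, and Prox1 lies near or under 1 FPKM throughout.

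Cells known to make VEGF-A showed no called gene. Podocyte genes had 0 calls by limma among 10, and without adjustment 2 were higher and 1 lower. For this list and those that follow, the unadjusted shares over all genes were 9.14% higher and 6.94% lower. Wt1, a podocyte and progenitor transcription factor, was at log2 0.30 (adjusted p = 0.116). Summed podocyte levels were 414 to 442 FPKM in knockout and 382 to 454 FPKM in wild-type kidneys. Of 8 proximal tubule genes 0 were called by limma and 1, Hnf4a, was higher by unadjusted p (log2 0.35, adjusted p = 0.236), with Cubn next (log2 -0.27, adjusted p = 0.637). Of 8 genes of the loop, distal tubule and collecting duct 0 were called, 3 were higher and 1 lower by unadjusted p, led by Calb1 at log2 0.22 (adjusted p = 0.101) and Hoxb7 at log2 0.25 (adjusted p = 0.144). All 7 nephron progenitor genes lay above 0 (6 under quantile normalization) and 0 were called by limma, with 1 higher by unadjusted p. Sall1 (log2 0.17, adjusted p = 0.255) and Six2 (log2 0.18, adjusted p = 0.348) led that list.

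Within the stromal and mural lists, Ntn1, the gene of the secreted guidance protein netrin-1, had 2.90, 2.65 and 2.33 FPKM in knockout kidneys, against 8.78, 10.2 and 11.6 FPKM in wild-type kidneys (log2 -1.62, adjusted p = 0.00138). Foxd1 measured 4.03 to 5.20 FPKM in knockout against 6.86 to 9.16 FPKM in wild-type kidneys (log2 -0.65, adjusted p = 0.0886). Only the knockout samples carry the Cre driven from Foxd1, and whether that allele itself changes the Foxd1 level was not tested. Foxd1 is nonetheless counted above among the stromal genes that lay without overlap below the wild-type range. Acta2, smooth muscle actin, had 16.6, 18.5 and 22.9 FPKM in knockout kidneys, against 37.4, 33.9 and 34.1 FPKM in wild-type kidneys (log2 -0.84, adjusted p = 0.023). Tagln, which encodes transgelin, was at log2 -0.86 (adjusted p = 0.0402). Its exons overlap Pcsk7 on the opposite strand. Acta2 lost its call in most fits that left out 1 library (adjusted p up to 0.126), and Tagln in all of them (adjusted p between 0.058 and 0.147). Without trend and robust moderation both calls were lost (0.0711 and 0.101). Tagln also lost it with no filter (0.0601) and under quantile normalization (0.0546). Of 10 macrophage genes, whose cells also make FLT1, 0 were called by limma and 0 had an unadjusted p under 0.05. Ptprc (log2 -0.20, adjusted p = 0.351) and Csf1r (log2 -0.19, adjusted p = 0.352) had the smallest p, and the summed level was 38.1 to 39.2 FPKM in knockout and 40.2 to 42.9 FPKM in wild-type kidneys. Of 10 red blood cell genes 0 were called by limma and 0 had an unadjusted p under 0.05, led by Slc4a1 (log2 0.20, adjusted p = 0.502). Their sum ran from 5881 to 8894 FPKM in knockout and from 5159 to 8475 FPKM in wild-type kidneys.

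The genes whose pattern over the 6 libraries was most like that of a member were found by the root mean square difference of centred log2(FPKM + 1) values, among 14027 genes averaging 1 FPKM or more. Nearest to Vegfa were Chst10 (0.0234) and Dmp1 (0.0299), and nearest to Vegfc were Scd2 (0.014) and Btg2 (0.0333). Kdr lay nearest to Spopl (0.0123) and Glmn (0.0155), Flt1 to Tnrc6c (0.0123) and Lrmda (0.0235), and Flt4 to Trio (0.0249) and Armcx4 (0.0264). Vegfd, added to this comparison after its values were seen, lay nearest to Ahnak (0.0688) and Gbgt1 (0.0887). Ahnak, a large scaffold protein gene, had 28.4, 24.4 and 25.8 FPKM in knockout kidneys, against 44.0, 45.2 and 45.5 FPKM in wild-type kidneys. Like Vegfd it was highest in the first of the knockout libraries and nearly level over the wild-type libraries. That likeness follows from how Ahnak was picked, by its pattern over these same libraries, and is no separate result.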

How the data were processed

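The submitters' processing notes name bcl2fastq 2.17.1.14 for base calls, Salmon for quantification and the build GRCm38 (mm10). The authors deposited FPKM values for 24749 Ensembl genes. The sources used here give neither Salmon's version nor the annotation nor the strandedness. Values carried a scaling between libraries, since the median log2 ratio of a gene to its geometric mean was 0.0038 in each. Symbols matched 24469 identifiers. Positions are from GENCODE M21.

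Genes averaging 0.5 FPKM or more were transformed as log2(FPKM + 1) and fitted with limma 3.58.1 in R 4.3.3, with genotype as the only term and trend and robust moderation. Changes on this scale understate those of low genes. P-values were adjusted by Benjamini-Hochberg over 16899 genes. Ratios were compared by exact permutation (scipy 1.17.1). On 5 simulated tables with known changes, the fit recovered 46% of log2 changes of 0.5 and 83.6% of log2 changes of 1. Of the genes it called there, 6.36% were false. The simulated noise was drawn for each gene on its own. These rates therefore leave out deviations that many genes of a library share, as in wild-type libraries 1 and 3. Depth was approximated from the steps of low values on genes with 1 transcript of at least 2000 bp, and intervals of fragment numbers cover counting error only. Alternatives changed the pseudocount (0.1), the filter (none or 1 FPKM), scaling, moderation, a replicate block and the libraries.

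From each list up to 4 called genes were named, or, with under 2 called, the 2 genes of lowest p. Some genes named by this rule are not reported here. The 8 genes and the 16 lists were chosen with earlier results of these data known.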

Additional observations from a re-analysis of the deposited data

How the results depend on the processing

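Vegfd stayed lower in every alternative run (adjusted p between 0.00927 and 0.0989). Its log2 change was -0.97 with a pseudocount of 0.1. Without 1 library it ran from -0.95 to -0.79, and the members called numbered 0 or 1. The other 7 members stayed uncalled. Leaving out 1 library gave log2 changes from -0.0772 to 0.34 for Vegfb, -0.16 to 0.0879 for Vegfc, -0.0708 to 0.0690 for Flt1, -0.13 to 0.00511 for Flt4 and -0.55 to -0.46 for Wwtr1, so the signs of Vegfb, Vegfc, Flt1 and Flt4 are not fixed. Differences of log2 ratios ran from -0.0850 to 0.10 for Flt4/Kdr, -0.15 to 0.11 for Pgf/Vegfa, -0.39 to 0.24 for Vegfb/Vegfa and -0.14 to 0.00282 for Flt1 against blood endothelium. Genes called without 1 library numbered 54 to 158 in all, 47 to 103 lower, 7 to 55 higher and 2 to 5 in the lists, each with 1 sample fewer in the fit.

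Under equal sums Flt1 was at -0.00047, Wwtr1 lost its call (log2 -0.53) and 12 genes were called higher. Without trend and robust options 75 genes were called (63 lower, 12 higher, 2 in the lists), and Wwtr1 was not (log2 -0.51). With ratios of FPKM + 1, Pgf/Vegfa turned to -0.0289. The cause was not tested.

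Libraries with the same replicate number did not deviate together (r = 0.0238, -0.0422 and 0.0504 over 16899 genes), and only knockout library 3 and wild-type libraries 1 and 3 correlated best with their own number. With the replicate number as a block 32 genes were called (30 lower, 2 higher, 3 in the lists) and 0 members, with Vegfd at -0.85 (adjusted p = 0.0989) and Wwtr1 at -0.51 (adjusted p = 0.108).

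Depth limits Vegfb most, at about 71.0 fragments in its lowest library (counting error 11.9%).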
